A study of Mus musculus with 19 samples.

Results

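Variation between unexposed preparations of cerebral microvessels (capillaries and other fine vessels of the brain) was described by comparing 2 sets of mice that breathed room air and nothing else: 4 libraries titled air and 4 titled Room-air, 8 of the 19 libraries of the series. The members were taken by their titles. All 8 carry the same labels in every other respect: male C57BL/6 mice bought at 7 weeks of age from 1 supplier, a fixed light cycle, room air exposure, cerebral microvessel as tissue, polyadenylated RNA extracted with TRIzol and sequenced strand-specifically as single 80 nt reads. The other 11 libraries of the series, used here for side-by-side values, come from the same kind of mice exposed to smoke (4), to an electronic cigarette with nicotine (Nic, 3) or to one without it (Nic-free, 4). The labels give no date, litter, batch, age at collection or way of isolating the vessels, and they do not say which air set served as the control of which exposure. Nothing states that the libraries of a set came from separate mice, so a p-value here speaks of the spread among these samples and no further.

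Brain capillaries are tubes of endothelial cells sealed by tight junctions, wrapped by pericytes and embedded in a basement membrane, and their transporters decide which nutrients enter the brain. Wnt signals through the receptor Fzd4 and its co-receptors Lrp5 and Lrp6 keep this barrier state in place. Endothelial cells also carry the glucocorticoid receptor, which enters the nucleus when corticosterone binds it and switches on a set of target genes. Corticosterone in mice follows the time of day and rises with handling and stress. A microvessel preparation is seldom pure, and fragments of neurons, myelin, choroid plexus and meninges come along in differing amounts.

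The Room-air libraries held 25266790 to 30185056 counts each and the air libraries 9761373 to 13490373, so every Room-air library was deeper than every air library, and depth cannot be told apart from the set. Intervals of counts would cover counting error only, since reads carry no molecular identifiers. After all libraries were thinned to about 7939180 counts, 19810 to 19908 genes were detected in the Room-air libraries and 19648 to 19734 in the air libraries. Reads assigned to no feature made up 35.4 ± 1.63% in the air set and 30.7 ± 2.28% in the Room-air set (SD, n = 4 each; exact two-sided permutation p = 0.0286, adjusted 0.0429 over 3 shares, and 0.0286 is the smallest p that 4 against 4 libraries allow). Endothelial markers were present in all 8 libraries, as the tissue label asks, at 0.349 to 0.488% of counts in the Room-air set and 0.172 to 0.311% in the air set. Neuron markers took 0.761 to 0.859% and 0.921 to 1.19% of counts, more than the endothelial markers in each library.

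The 2 unexposed sets differed in 3761 of 16557 genes tested (22.7%), by edgeR's quasi-likelihood test on the fit of all 19 libraries with a Benjamini-Hochberg adjusted p below 0.05, which is what "called" means from here on. Of these, 1777 were higher in the air set (10.7%) and 1984 lower (12.0%). A difference of at least 2-fold was found in 96 of the genes called higher and 359 of those called lower, and of at least 4-fold in 4 and 23. The 4 air libraries did not overlap the 4 Room-air libraries in CPM (counts scaled to library size, with TMM factors) in 4439 genes (26.8%), 2067 higher and 2372 lower (12.5% and 14.3%). In the same fit, 519 genes (3.13%) passed between smoke and the air set, 3227 (19.5%) between Nic-free and the Room-air set and 348 (2.10%) between Nic and the Room-air set. These comparisons share their air libraries with the one described here, so they are given side by side only. With all libraries thinned to the shallowest air library, 3318 genes were called. Without air replicate 2 the count was 2459 and without air replicate 3 it was 2415.

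Libraries of 1 set resembled each other more than libraries of different sets. At equal depth, the median absolute log2 difference over 15095 genes was 0.201 for the 6 pairs of Room-air libraries (0.151 to 0.222), 0.186 for the 6 pairs of air libraries (0.149 to 0.199) and 0.275 for the 16 pairs across the sets (0.210 to 0.311). Every one of the 8 libraries was nearer on average to its own set than to the other. The distance between the air sets was within the range of distances to exposed groups, with medians of 0.217 from air to Nic-free, 0.233 from air to smoke, 0.303 from air to Nic, 0.238 from Room-air to Nic, 0.243 from Room-air to smoke and 0.253 from Room-air to Nic-free. Principal components of the 8 libraries were taken on log2 CPM without thinning, so depth differed between the sets there. The first held 50.6% of the variance and placed the Room-air set at −33.1 to −19.4 and the air set at 13.97 to 38.2. Among 12239 genes of at least 5 CPM in both sets, the set means in the thinned counts differed by more than the SD of either set in 52.0%.

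**Figure D1:**
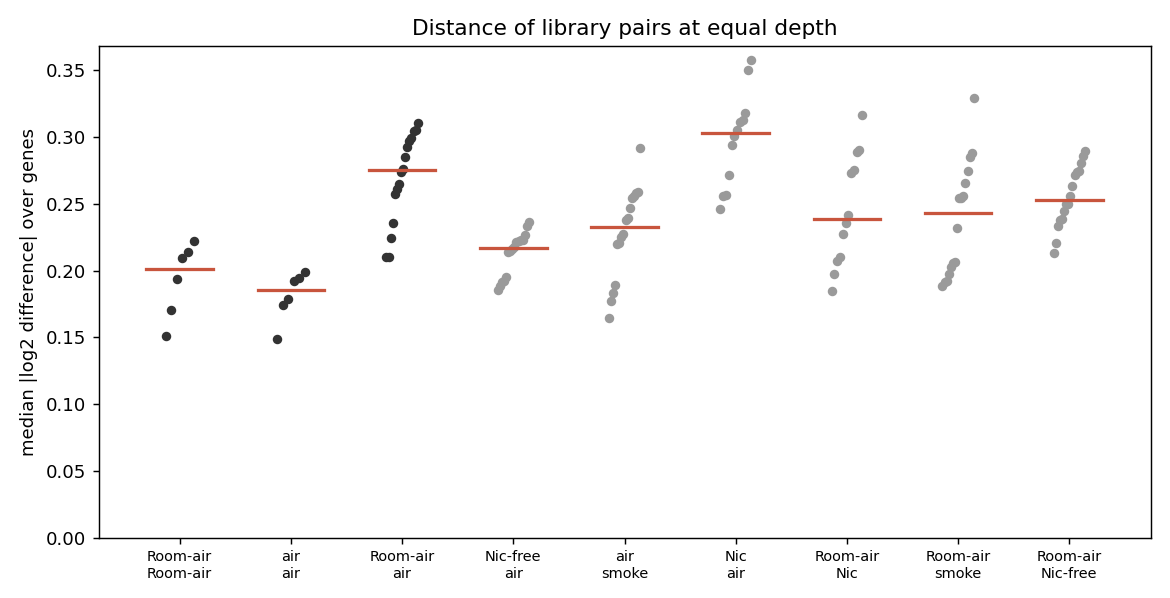
Median absolute log2 difference over genes (vertical axis) for every pair of libraries at equal depth, with 1 point per pair, a red line at the median of each kind of pair, and pairs of unexposed libraries in black. Pairs across the 2 air sets have a median of 0.275, above 0.201 and 0.186 within the sets.

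Glucocorticoid-induced genes were lower in the air set, and their median difference was the farthest from 0 of the 48 lists. Of 20 members tested, 14 were lower in the air set and none higher, against 12.0% of all genes called lower, and the median log2 fold change was −1.32, against −0.00266 over all genes tested. The lower genes include the glucocorticoid receptor targets Fkbp5, Tsc22d3, Sgk1 and Per1, the cell cycle inhibitor Cdkn1a and the kinase Map3k6. The 6 members not called were Errfi1 (−0.28), Klf9 (−0.20), Pdk4 (−0.40), Lcn2 (−1.08), Mt1 and Mt2. Of the 20 members, 16 were lower without overlap between the sets, against 14.3% of all genes. The list was drawn up with results of other comparisons of these libraries known. Endothelial markers were lower in the air set too, and choroid plexus markers took a smaller mean share of counts without passing the test. Their part in this difference was examined only through the covariates described further on.

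Cdkn1a, the p21 inhibitor of cyclin-dependent kinases (chromosome 17, 29090976 to 29100727, GRCm38), had the smallest adjusted p of all genes. It stood at 99.8, 94.5, 90.5 and 112 CPM in Room-air 1 to 4 and at 29.6, 22.9, 20.8 and 15.9 CPM in air 1 to 4. The lowest Room-air library was above every air library by a wide margin, and the log2 fold change was −2.15 ± 0.13 (SE; edgeR adjusted p 8.02e-09). Map3k6, a kinase of stress signalling (chromosome 4, 133240818 to 133252929), was at 35.3, 41.8, 60.6 and 39.7 CPM in the Room-air libraries and 7.41, 11.4, 5.88 and 6.76 CPM in the air libraries. The sets did not overlap, and this was the largest fall among genes without overlap that reached a mean of 5 CPM, −2.51 ± 0.26 (edgeR adjusted p 2.03e-05). Sgk1, a kinase that regulates ion channels and transporters (chromosome 10, 21882184 to 21999903), was at 173, 167, 174 and 239 CPM against 46.4, 48.01, 61.6 and 65.6 CPM, a log2 difference of −1.77 ± 0.29 (edgeR adjusted p 0.000786), and Room-air 4 was the highest of all.

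Tsc22d3, the glucocorticoid-induced leucine zipper, was at 157, 131, 155 and 199.97 CPM in the Room-air libraries and 55.1, 69.9, 60.6 and 52.5 CPM in the air libraries (−1.43 ± 0.13, edgeR adjusted p 6.48e-06). Ddit4, an inhibitor of mTORC1, was at 79.3, 97.1, 65.1 and 93.5 CPM against 25.8, 31.1, 28.1 and 22.8 CPM (−1.64 ± 0.17, adjusted p 1.84e-05). Both genes had sets that lay far apart, with little spread inside a set. Fkbp5, a co-chaperone that damps the glucocorticoid receptor, was at 30.4, 36.9, 44.9 and 51.3 CPM against 16.3, 20.4, 19.4 and 14.4 CPM (−1.21 ± 0.17, adjusted p 0.000167). Nfkbia, which encodes the inhibitor of NF-kB, was at 115, 109, 113 and 135 CPM against 53.1, 38.5, 36.3 and 39.1 CPM (−1.50 ± 0.16, adjusted p 1.84e-05). Neither gene overlapped between the sets, and air 1 was the highest of the air libraries for Nfkbia. Plin4, a coat protein of lipid droplets, was lower as well (log2 fold change −2.16).

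Of the other members called lower, Zbtb16, a transcriptional repressor (−1.59, edgeR adjusted p 4.03e-05), Hif3a, a hypoxia-inducible factor subunit (−1.77, 0.00111), and Angptl4, an inhibitor of lipoprotein lipase (−1.75, 0.000179), are outside the naming rule and were picked after their values were seen. The same holds for Mt1 and Mt2, the metallothioneins, the only 2 of the 20 members with an estimate above 0. Mt1 was at 191, 202, 189 and 230.1 CPM in the Room-air libraries and 222, 412, 408 and 265 CPM in the air libraries (0.69, edgeR adjusted p 0.0529), and Mt2 had a log2 fold change of 0.47 (adjusted p 0.177). The sets overlapped in both metallothionein genes, and air 2 and air 3 were the highest libraries for each. Mt1 passed as higher in 8 of the 24 alternatives, among them the fit of the 8 libraries alone (0.69, adjusted p 0.0205) and those without air replicate 1 (0.86, adjusted p 0.0231) or air replicate 4 (0.77, adjusted p 0.0469). With the ribosomal protein covariate its estimate was −0.12.

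**Figure D2:**
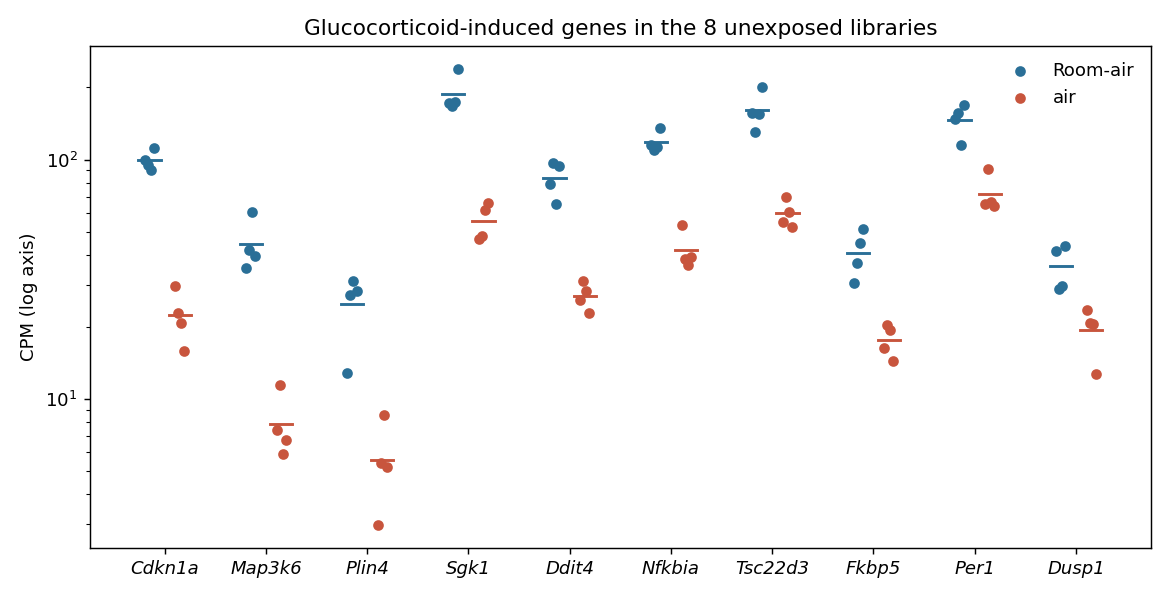
CPM on a log axis of 10 glucocorticoid-induced genes called lower in the air set, with 1 point per library, Room-air in blue and air in red, and a line at the mean of 4 libraries. No gene shown has an air library above a Room-air library, and Cdkn1a runs from 90.5 to 112 CPM in the Room-air set and from 15.9 to 29.6 CPM in the air set.

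Promoter stretches are shown for 3 of these genes because the receptor binds DNA at short palindromes and Per1 is shared with the clock. They come from RefSeq (GRCm38.p6), from windows that span 250 bases before to 50 after each annotated start, and only bases before the start are printed, 5′ to 3′. The capitals mark the fixed letters of a motif searched on both strands: the palindrome of AGAACA, any 3 bases and TGTTC in Sgk1 (chr10:21993657-21993760, plus strand, inside the gene and between its exons, upstream of 1 of 6 annotated starts), the relaxed palindrome of GNACA, any 3 bases and TGTNC in Map3k6 (chr4:133240592-133240694, plus strand, outside any annotated gene) and CACGTG, the E-box read by clock factors, in Per1 (chr11:69098738-69098833, plus strand, inside the gene and between its exons, upstream of 1 of 2 starts).
Sgk1: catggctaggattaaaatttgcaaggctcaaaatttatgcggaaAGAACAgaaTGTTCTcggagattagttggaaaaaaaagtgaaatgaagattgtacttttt
Map3k6: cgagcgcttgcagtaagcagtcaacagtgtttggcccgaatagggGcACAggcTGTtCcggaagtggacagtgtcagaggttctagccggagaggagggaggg
Per1: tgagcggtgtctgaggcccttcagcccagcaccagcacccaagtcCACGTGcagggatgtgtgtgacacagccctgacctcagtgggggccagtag
Of the 14 members called lower, 12 had a window. The palindrome was found in 1 of them (Sgk1), against 0.0487% of all 32851 windows of the table, and the relaxed form, which also takes in the first, in 2 (Map3k6 and Sgk1), against 0.475%. AGAACA alone was found in 3 (Sgk1, Sult1a1 and Tsc22d3), against 18.97% of windows, and CACGTG in 4 (Dusp1, Fkbp5, Per1 and Sgk1), against 7.15%. Genes with several starts have several windows and so more room for a match. A match describes the letters of the window and shows no binding.

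The blood-brain barrier genes were lower in the air set as a group, though not in every member. Of 22 barrier transporters tested, 15 were lower and none higher (12.0% of all genes called lower), with a median log2 fold change of −0.53. Slc2a1, the glucose transporter of brain endothelium (chromosome 4, 119108711 to 119137983), was at 764, 781, 864 and 802 CPM in the Room-air libraries and 332, 309, 209.6 and 256 CPM in the air libraries, a log2 difference of −1.54 ± 0.17 (edgeR adjusted p 1.84e-05). Slc7a5, the large neutral amino acid carrier, was at 236, 259, 218 and 199.7 CPM against 90.1, 69.99, 72.6 and 86.5 CPM (−1.51 ± 0.15, adjusted p 1.78e-05), and its partner subunit Slc3a2 was lower by less (−0.57). Neither Slc2a1 nor Slc7a5 had an air library near the lowest Room-air library. The lipid carrier Mfsd2a (−1.01) and the drug efflux pumps Abcb1a (−0.997) and Abcg2 (−0.98) were also lower. Whether the counting used strand is not given, and Slc2a1, Slc7a5, Abcb1a, Cdkn1a, Fkbp5 and Plin4 overlap a gene on the opposite strand, so their counts are uncertain to that extent. The same holds for Cdh5, Tjp1, Timp3, Lamc1, Col4a1, Abcc9, Smtn, Fn1, Ogn, Slfn5, Ston1, Galnt15, Nos3, Rpl23a, Rpl31, Myl4, Sh3gl3, Mbp, Ermn, Snap25, Rbfox3, Sod1, Arntl, Bhlhe41 and Bhlhe40, wherever they are named.

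Among 18 tight and adherens junction genes, 10 were lower (55.6%, beside 12.0% of all genes) and none higher, with a median of −0.46. Ocln, the tight junction protein occludin, was at 71.4, 64.1, 80.4 and 55.8 CPM in the Room-air libraries and 38.9, 25.5, 25.97 and 31.5 CPM in the air libraries (−1.15 ± 0.19, edgeR adjusted p 0.000713). The sets did not overlap for Ocln. Cldn5, the main claudin of brain endothelium, was at 401, 419, 352 and 250.5 CPM against 397, 298, 199 and 250.1 CPM, and did not pass (−0.31 ± 0.28, adjusted p 0.427). Air 1 was as high in Cldn5 as Room-air 1, so the sets overlapped. Tjp1, the scaffold protein ZO-1, did not pass either (−0.21 ± 0.12, adjusted p 0.206). The junction adhesion molecule Jam2 (−0.61) and p120-catenin, Ctnnd1 (−0.48), were lower. The count for junction genes was 6 without Room-air replicate 3, without air replicate 2 or without air replicate 3.

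The Wnt receptor complex was lower in its receptor and both co-receptors. Fzd4, the Frizzled receptor for Norrin (chromosome 7, 89404355 to 89413134), was at 29.3, 26.1, 31.8 and 18.6 CPM in the Room-air libraries and 4.96, 3.53, 4.05 and 6.37 CPM in the air libraries, the next largest fall after Map3k6 (−2.48 ± 0.36, edgeR adjusted p 0.000356). The co-receptor Lrp5 was at 52.9, 50.4, 54.7 and 40.5 CPM against 20.6, 13.7, 15.7 and 20.9 CPM (−1.48 ± 0.17, adjusted p 2.55e-05), and Lrp6 was lower by less (−0.86). None of the 3 overlapped between the sets. Apcdd1, a Wnt target gene of barrier endothelium, was lower too (log2 fold change −1.16). Over the 16 Wnt receptors and targets tested, 8 were lower and 1, Tspan12, was higher (12.0% and 10.7% of all genes), and the median was −0.52. Tspan12 (0.37) is named, outside the naming rule, because it was the only member called higher. Its call was lost without Room-air replicate 2 (0.30, adjusted p 0.0858), Room-air replicate 4 (0.36, 0.0543) or air replicate 2 (0.29, 0.106).

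Endothelial markers as a whole were lower, with 13 of 20 called lower (65%, beside 12.0% of all genes) and none higher, and a median log2 fold change of −0.78. The list shares Slc2a1, Abcb1a and Slco1a4 with the barrier transporters and Cldn5, Pecam1, Cdh5 and Esam with the junction genes. The counts of these lists are therefore not separate results. Pecam1, an adhesion molecule of endothelial cells, was at 196, 162, 219 and 129.9 CPM in the Room-air libraries and 104, 88.1, 56.4 and 65.5 CPM in the air libraries (−1.17 ± 0.24, edgeR adjusted p 0.00328). Cdh5, the cadherin of endothelial junctions (−1.03), the adhesion receptor Adgrl4 (−1.16) and the membrane protein Itm2a (−0.98) were lower by about the same size. The mean log2 CPM of the endothelial list was 7.502, 7.26, 7.48 and 6.97 in Room-air 1 to 4 and 6.93, 6.70, 6.08 and 6.38 in air 1 to 4. The sets did not overlap, but Room-air 4 and air 1 were next to each other. Fewer endothelial cells in a preparation and less RNA of these genes per cell cannot be told apart in bulk RNA. Without air replicate 3 the count was 8 of the 20.

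Pericyte and fibroblast markers were lower too, and most smooth muscle markers did not pass. Of 10 pericyte markers, 7 were lower and none higher, with a median of −0.64. All 10 were lower without overlap between the sets, against 14.3% of all genes. Rgs5, a regulator of G protein signals in pericytes, was at 719, 515, 754 and 511 CPM in the Room-air libraries and 459.6, 386, 243 and 342 CPM in the air libraries (−0.80 ± 0.20, edgeR adjusted p 0.00802). The potassium channel subunits of pericytes Kcnj8 (−0.92) and Abcc9 (−0.91) and the aminopeptidase Anpep (−0.94) were lower. Of 10 smooth muscle markers, 1 was lower (12.0% over all genes), Smtn (−0.99), which encodes smoothelin. Of 14 fibroblast and meningeal markers, 8 were lower with a median of −0.69, such as fibronectin, Fn1 (−0.94), and osteoglycin, Ogn (−0.93, lost without Room-air replicate 3 at an adjusted p of 0.0578 or air replicate 3 at 0.0515). That count was 3 without Room-air replicate 3 or without air replicate 3, and 5 without Room-air replicate 1, Room-air replicate 4 or air replicate 4.

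Of 20 basement membrane and matrix genes, 13 were lower (65%, beside 12.0% of all genes) and none higher, with a median of −0.61. Timp3, an inhibitor of matrix metalloproteinases, was at 461, 356, 569 and 406 CPM in the Room-air libraries and 205, 199.9, 162 and 221 CPM in the air libraries (−1.19 ± 0.14, edgeR adjusted p 4.00e-05). All air libraries were below all Room-air libraries. Perlecan, Hspg2 (−1.04), the laminin chain Lamc1 (−0.87), the collagen chain Col4a1 (−0.42), the inhibitor Timp2 (−0.62) and the membrane-bound protease Mmp14 (−1.09) were lower. Without air replicate 3 the count was 8 of the 20.

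**Figure D3:**
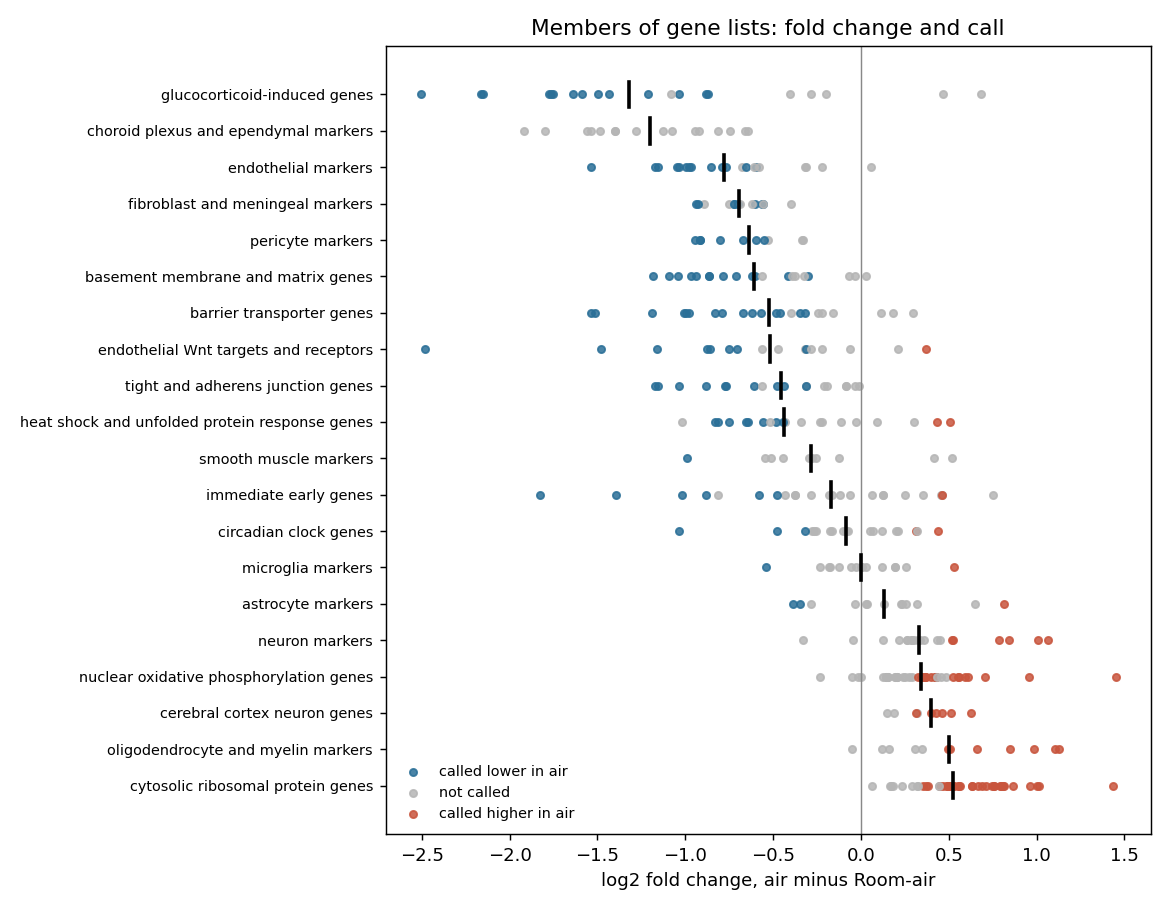
Log2 fold change of air minus Room-air (horizontal axis) for each tested member of 20 gene lists, with blue points for members called lower in the air set, red for members called higher, grey for members not called, and a black bar at the list median. Medians run from −1.32 for glucocorticoid-induced genes to 0.53 for cytosolic ribosomal protein genes.

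The choroid plexus secretes cerebrospinal fluid inside the ventricles and is no part of the brain's capillaries. Its markers spread widely among the air libraries, and none of the 16 choroid plexus and ependymal markers was called (edgeR; 1 had an unadjusted p under 0.05, DESeq2 called 1 and limma-voom 0), although the median log2 fold change was −1.20. In the fit of the 8 libraries alone 3 were called lower. Their mean log2 CPM was 6.64, 6.57, 6.82 and 6.63 in Room-air 1 to 4 and 4.75, 4.15, 5.47 and 6.43 in air 1 to 4, without overlap. Kl, the gene of Klotho, was at 442, 396, 633 and 352 CPM in the Room-air libraries and 77.4, 40.3, 160.4 and 246 CPM in the air libraries (−1.80 ± 0.97, edgeR adjusted p 0.194). Ttr, the thyroid hormone carrier transthyretin, was at 16118, 17899, 20664 and 23769 CPM against 5602, 3616, 10991 and 24356 CPM, and air 4 was above all Room-air libraries. The list took 2.29 to 3.04% of counts in the Room-air set and 0.461 to 2.86% in the air set.

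Markers of myelin and some markers of neurons were higher in the air set. Of 12 oligodendrocyte and myelin markers, 7 were higher and none lower (10.7% of all genes called higher), with a median of 0.50. Mobp, a protein of the myelin sheath, was at 2910.1, 3327, 2907 and 2578 CPM in the Room-air libraries and 5352, 8208, 6711 and 5392 CPM in the air libraries (1.13 ± 0.19, edgeR adjusted p 0.000598). Mbp, myelin basic protein, was at 8000.02, 9333, 6927 and 7179 CPM against 14731, 20559, 17250.2 and 14972 CPM (1.10 ± 0.21, adjusted p 0.00132). Air 2 was the highest library for both, and no air library reached down to the Room-air levels. The cytoskeletal protein Ermn (0.98) and the membrane protein Opalin (0.85) of oligodendrocytes were higher as well.

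Of 20 neuron markers, 6 were higher (30%, beside 10.7% of all genes) and none lower, with a median of 0.33. Nrgn, which encodes the postsynaptic protein neurogranin, was at 449, 487, 489 and 518 CPM in the Room-air libraries and 799, 876, 1379.7 and 845 CPM in the air libraries (1.01 ± 0.19, edgeR adjusted p 0.00135). Air 3 stood out among the air libraries for Nrgn. Snap25, of the synaptic release machinery (0.78), the neuropeptide gene Npy (0.84) and Rbfox3, the NeuN antigen (0.52), were higher. Of 9 genes of cerebral cortex neurons, 6 were higher (66.7%, beside 10.7% of all genes) and none lower, with a median of 0.40. Among the 6 were the transcription factors Tbr1 (0.63) and Bcl11b (0.51). That count was 3 without air replicate 3. Of 8 cerebellum genes 3 were higher (37.5%, beside 10.7% of all genes) and none lower (median 0.44). The cerebellum count was 1 without air replicate 2 or 3. Estimates lay above 0 for 5 of these 8 and below 0 for 3, Cbln1 (−0.52), Barhl1 (−1.54) and Itpr1 (−0.29). Pcp2 and Gabra6 were too low to be tested. By share of counts the cerebellum list was not raised: air libraries ranged over 0.0399 to 0.0491%, Room-air libraries over 0.0444 to 0.0601%. Of 9 hippocampus genes 1 was higher and 1 lower, and of 8 thalamus genes 2 were lower and none higher (median −0.24). Their shares called, 22.2% and 25%, were near the 22.7% of all genes. Of 11 striatum genes edgeR, DESeq2 and limma-voom called 0, and 1 had an unadjusted p under 0.05 in edgeR (median −0.0041). Other genes among the largest rises were Pcp4, a calmodulin-binding peptide of neurons (1.25), and Vsnl1, a neuronal calcium sensor (1.18). Of 15 microglia markers 1 was higher and 1 lower, and of 13 astrocyte markers 1 was higher and 2 were lower. These are shares of 13.3% and 23.1%, beside 22.7% of all genes called.

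**Figure D4:**
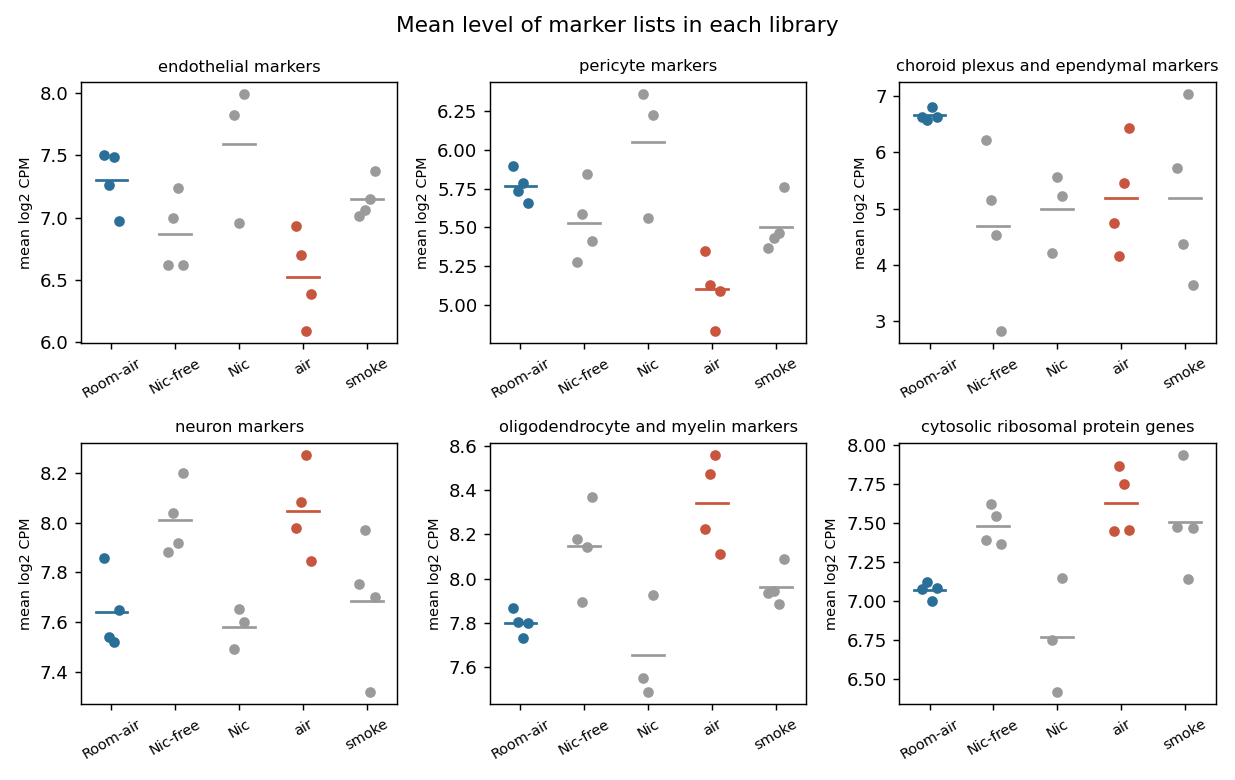
Mean log2 CPM of 6 lists in each of the 19 libraries, with 1 point per library, a line at each group mean, Room-air in blue, air in red and exposed groups in grey. The endothelial list lies between 6.97 and 7.502 in the Room-air set and between 6.08 and 6.93 in the air set, and the choroid list spreads from 4.15 to 6.43 in the air set.

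Genes of ribosomes and of mitochondrial respiration were higher in the air set. Of 42 cytosolic ribosomal protein genes tested, 32 were higher (76.2%, beside 10.7% of all genes) and none lower, with a median log2 fold change of 0.53. Of these 42, 35 were higher without overlap between the sets, against 12.5% of all genes. Rpl38, of the large subunit, was at 56.5, 62.7, 56.9 and 63.3 CPM in the Room-air libraries and 132, 229, 168 and 119 CPM in the air libraries (1.44 ± 0.23, edgeR adjusted p 0.000655). The sets did not overlap, and the spread in the air set was wide, with air 2 highest. Rps19 (1.01) and Rpsa (0.96) of the list were higher too. So were Rpl39 (1.44), Rpl23a (1.27) and Rpl31 (1.24), ribosomal protein genes that are outside the list of 42. Ribosomal protein genes have near-identical copies elsewhere in the genome, and how the counting split their reads is not stated, so these values are uncertain.

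Of 41 nuclear genes of oxidative phosphorylation, 18 were higher (43.9%, beside 10.7% of all genes) and none lower, with a median of 0.34. Ndufb4, of complex I, was at 7.499, 8.01, 7.42 and 8.03 CPM in the Room-air libraries and 17.9, 32.4, 21.01 and 13.6 CPM in the air libraries (1.45 ± 0.23, edgeR adjusted p 0.000402). The complex I genes Ndufa5 (0.96) and Ndufb9 (0.71) were higher too. The count was 10 of the 41 without Room-air replicate 3, 9 without air replicate 2 and 7 without air replicate 3. Many of these transcripts are short, and transcript length went with the direction over all genes. The median summed exon length was 3190.5 bases for genes called higher, 5337 for genes called lower and 4158 for genes not called. Among the shortest 20% of genes 570 were higher and 181 lower, and among the longest 20% 210 were higher and 582 lower. With offsets for GC content and length fitted per library, 2248 genes were higher and 2012 lower. In that fit 17 of the 41 oxidative phosphorylation genes were higher, 13 of them among the 18 above, and the list's median was 0.24. Of the 42 ribosomal protein genes 30 were higher, with a median of 0.51. RNA integrity was not given, and its part was not tested.

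When the mean level of a marker list was added to the model as a covariate, the lists behaved differently. Of the 14 glucocorticoid-induced genes called lower, the same 14 were lower with the neuron list as covariate, 13 with the endothelial list and 13 with the neuron, endothelial and choroid lists together, and the list's median was −1.41, −1.30 and −1.41. In each of the 24 alternatives run, at least 13 of these 14 were lower. Barrier transporters went from 15 lower to 5, 4 and 3 with these covariates, endothelial markers from 13 to 1 each time (with 0, 2 and 1 called higher), and ribosomal protein genes from 32 higher to 0, 19 and 3. Nuclear oxidative phosphorylation genes went from 18 higher to 1, 5 and 0. Over all genes, 735, 833 and 189 were called. Among the genes called without a covariate, the median absolute log2 fold change was 0.752, 0.820 and 0.612 times its size without one, and the median SE 1.19, 1.23 and 1.24 times. The endothelial covariate holds the endothelial markers themselves, among them the barrier transporters Slc2a1, Abcb1a and Slco1a4. Each covariate also differed between the sets, so a lost call does not show that a gene was alike in both. Of the genes named with a fold change, the lower calls of Cdkn1a, Map3k6, Sgk1, Tsc22d3, Ddit4, Nfkbia, Fkbp5, Per1, Plin4, Zbtb16, Hif3a, Angptl4, Slc2a1, Slc7a5, Mfsd2a, Fzd4, Lrp5, Timp2, Timp3, Klf4, Egr3, Chrna7, Dag1, Net1 and Slfn5 held in all 24 alternatives. So did the higher calls of Mobp, Ighm, Pcp4, Rpl23a, Myl4, Trim59 and Sh3gl3. The fit with 3 covariates was added after the data were seen.

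**Figure D5:**
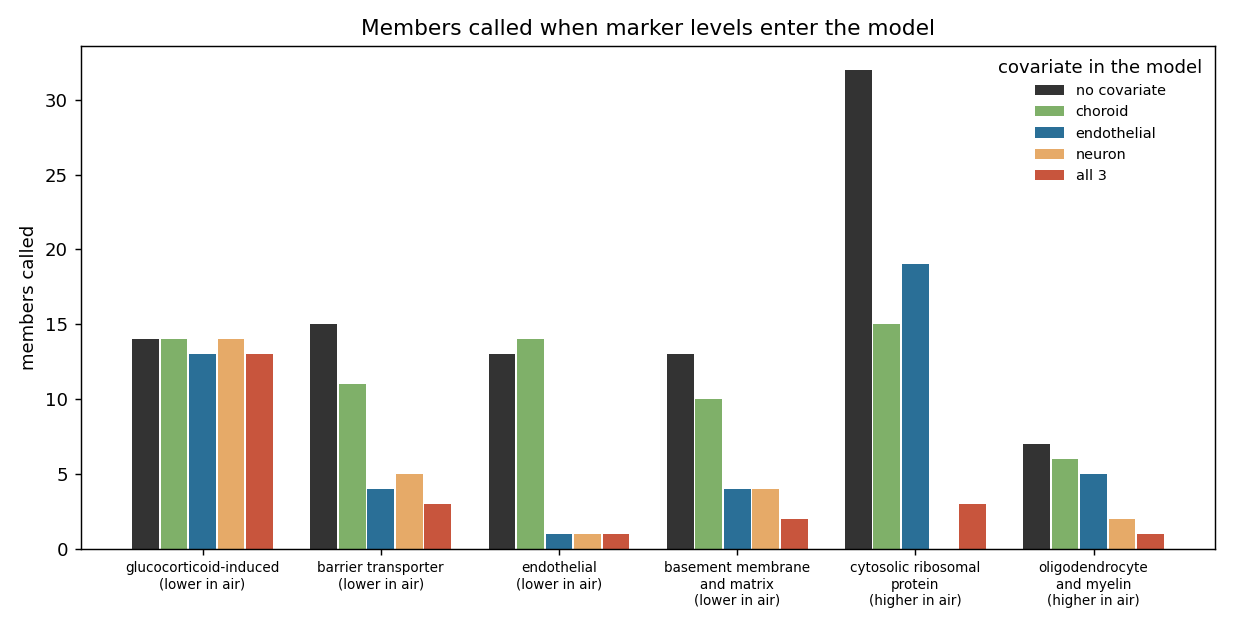
Number of members called in the direction named under each list (bars, from 0) for 6 lists in the model without a covariate and with the mean level of the choroid, endothelial or neuron list, or of all 3, as covariates. Glucocorticoid-induced genes stay at 13 or 14, while endothelial markers called lower go from 13 to 1 with the endothelial or neuron covariate.

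Of 19 clock genes tested, 2 were higher and 3 lower, a share near the 22.7% of all genes called. Per1, a period gene that is also a direct target of the glucocorticoid receptor, was at 148, 156, 115 and 168 CPM in the Room-air libraries and 65.4, 90.9, 66.4 and 63.997 CPM in the air libraries (−1.04 ± 0.12, edgeR adjusted p 1.84e-05). The period gene Per2 (−0.48) and the repressor Bhlhe40 (−0.32) were lower, while the activator Arntl (0.32) and the repressor Bhlhe41 (0.44) were higher. The other 14 were not called. The call of Bhlhe40 was lost without Room-air replicate 1, air replicate 3 or air replicate 4 (adjusted p 0.0560, 0.0561 and 0.0552). The time of day of collection is not in the labels, and its part was not tested.

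Of 20 genes of the heat shock and unfolded protein responses, 8 were lower and 2 higher (12.0% and 10.7% of all genes), with a median of −0.44. The 8 were Hspa5, Xbp1, Herpud1, Sdf2l1, Calr, Pdia4, Pdia6 and Manf. The heat shock genes Hspa1a (0.092), Hspa1b (−0.22), Hspa8 (0.30), Hspb1 (−1.02), Dnajb1 (−0.34), Hsph1 (−0.027) and Hsp90aa1 (−0.11) were not called. Hspa5, the BiP chaperone, was at 847, 641, 977 and 811 CPM in the Room-air libraries and 599, 322, 378 and 545 CPM in the air libraries (−0.83 ± 0.22, edgeR adjusted p 0.0105). The transcription factor Xbp1 (−0.56) and calreticulin, Calr (−0.48) (lost without air replicate 2 or 3, adjusted p 0.0720 and 0.0506), were lower, and the stress factor Atf4 (0.43) was higher. The lower count was 5, 4, 3 and 3 without Room-air replicate 1, Room-air replicate 3, air replicate 2 and air replicate 3. Of 24 immediate early genes 6 were lower and 1 higher (29.2%, beside 22.7% of all genes called). Maff (−1.83), Klf4 (−1.39) and Egr3 (−1.02), all transcription factors, were the 3 largest. The 3 nitric oxide synthase genes were lower, among them Nos3, the endothelial form, at 126, 119, 105 and 86.03 CPM against 81.4, 64.1, 38.3 and 52.8 CPM (−0.88 ± 0.26, adjusted p 0.0214), and Nos2, the inducible form (−1.41). Nos1, the neuronal form (−0.49), lost its call without Room-air replicate 1 (−0.33, adjusted p 0.0932) or air replicate 4 (−0.41, 0.0687). Of the 10 NADPH oxidase and nitric oxide synthase genes tested 4 were lower (40%, beside 12.0% of all genes). That count became 2, 2 and 1 without Room-air replicate 1, air replicate 3 and air replicate 4. Nos3 lost its call without Room-air replicate 1, air replicate 3 or air replicate 4 (adjusted p 0.0564, 0.0669 and 0.0510).

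Of 17 NF-kB and cytokine genes 4 were lower and 1 higher, and of 20 interferon response genes 4 were lower and none higher, which became 1, 1 and 2 lower without Room-air replicate 3, air replicate 3 and air replicate 4. Of 24 NRF2 and antioxidant genes 3 were higher and 2 lower. Without air replicate 1, 5 were higher and 1 lower. The lower count was 0 without Room-air replicate 3 or air replicate 3 and 1 without Room-air replicate 1 or air replicate 2. The shares called in the NF-kB, interferon and NRF2 lists were 29.4%, 20% and 20.8%, beside 22.7% of all genes. Fth1, the heavy chain of the iron store ferritin, was at 2679, 3068, 2745 and 2674 CPM in the Room-air libraries and 4407, 6579.6, 6161 and 4572 CPM in the air libraries (0.96 ± 0.20, edgeR adjusted p 0.00259), and the superoxide dismutase Sod1 was higher by 0.47. The sets did not overlap in either gene. Cyp1b1, a target of the aryl hydrocarbon receptor, was lower (−0.98). Its call was lost without Room-air replicate 3 (−0.68, adjusted p 0.101), air replicate 3 (−0.85, 0.0888) or air replicate 4 (−0.88, 0.0708). Cyp1a1, the receptor's best known target, was at most 0.156 CPM in all 19 libraries. Of 9 nicotinic receptor genes tested, 1 was lower, Chrna7 (−0.74), the subunit of the homomeric receptor. That share, 11.1%, was near the 12.0% of all genes called lower.

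Among genes without overlap that reached a mean of 5 CPM, the largest falls outside these lists were in Atp7a, a copper pump (−2.15 ± 0.49), Zfp366, a zinc finger repressor (−2.09 ± 0.32), Xdh, xanthine dehydrogenase (−2.06 ± 0.29), Slfn5, of the schlafen family (−2.004 ± 0.28), Ston1, an endocytic adaptor (−2.002 ± 0.26), Sntb1, a syntrophin (−1.96 ± 0.47), Galnt15, a glycosyltransferase (−1.92 ± 0.39), and Cyyr1 (−1.85 ± 0.37). Slfn5 was at 42.3, 28.8, 47.2 and 24.3 CPM in the Room-air libraries and 12.98, 9.12, 6.34 and 6.95 CPM in the air libraries (edgeR adjusted p 0.000221). Dag1, the matrix receptor dystroglycan (−1.17 ± 0.12), and Net1, a guanine nucleotide exchange factor (−1.36 ± 0.14), were among the 10 smallest adjusted p. By the same measure, rises outside these lists were found in Myl4, a myosin light chain (1.21 ± 0.15), Trim59 (1.19 ± 0.14) and Scarna2, a small RNA of Cajal bodies (1.17 ± 0.28). Of 6 lymphocyte markers tested, 2 were higher (33.3%, beside 10.7% of all genes), Ighm and Trbc2, a T cell receptor constant region (1.30 ± 0.24). Ighm, the immunoglobulin mu chain, was at 26.2, 27.2, 25.9 and 26.8 CPM against 50.8, 49.8, 61.9 and 49.3 CPM (0.997 ± 0.11, adjusted p 1.84e-05), and Sh3gl3, an endophilin, was higher by 0.88. The 4 Room-air libraries lay close together for Ighm, and all air libraries lay above them.

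Of 15 genes tested that are often used to normalise quantitative PCR, 3 were higher in the air set and 1 lower, a share near the 22.7% of all genes called. Ywhaz, a 14-3-3 protein, was at 229.8, 169.7, 199 and 209.9 CPM in the Room-air libraries and 274, 329, 322 and 266 CPM in the air libraries (0.56 ± 0.11, edgeR adjusted p 0.00123), without overlap. Rplp0, a ribosomal stalk protein (0.49), was higher too, and Gusb, beta-glucuronidase, was lower (−0.28). Rplp0 lost its call when any 1 of 6 libraries was left out, which were all but air replicates 1 and 4 (adjusted p 0.0514 to 0.0858), and Gusb without Room-air replicate 1, Room-air replicate 3 or air replicate 3 (adjusted p 0.0559 to 0.0819). The other 11, among them Actb, Gapdh, Tbp, B2m and Hprt, did not pass.

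For 4 of the genes described above, exposed groups are given as group means beside the air sets, without a test here. They are examples, not the 4 largest differences, and do not stand for the other genes. Cdkn1a stood at 99.2 ± 9.43 CPM in the Room-air set and 22.3 ± 5.69 CPM in the air set (SD, n = 4 each), at 77.3 in Nic, 22.98 in Nic-free and 16.8 in smoke. Slc2a1 stood at 803 ± 43.6 and 277 ± 54.8 CPM in the air sets, at 815 in Nic, 369.6 in Nic-free and 443 in smoke. Fzd4 stood at 26.4 ± 5.73 and 4.73 ± 1.25 CPM in the air sets, at 14.5 in Nic, 6.06 in Nic-free and 13.5 in smoke. Rpl38 stood at 59.8 ± 3.65 and 162 ± 49.2 CPM, at 56.3 in Nic, 103 in Nic-free and 104 in smoke. For Cdkn1a and Slc2a1 the Nic mean was nearer to the Room-air set, and the Nic-free and smoke means were nearer to the air set. For Fzd4 all exposed groups lay between the sets, and for Rpl38 the Nic mean was at the Room-air level with Nic-free and smoke between the sets.

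Within a set, the genes that varied most included acute phase genes and genes of single brain regions. Lcn2, the acute phase protein lipocalin 2, was at 2.21, 0.728, 189.9 and 2.02 CPM in Room-air 1 to 4 and 3.74, 70.5, 17.7 and 1.25 CPM in air 1 to 4. Lrg1, another acute phase gene, was at 1.79, 2.08, 20.4 and 3.10 CPM and 1.83, 26.1, 8.94 and 2.32 CPM. Room-air 3 and air 2 were the high libraries for both. Serpina3g, a serine protease inhibitor, was at 1.14, 0.430, 26.2 and 0.411 CPM in Room-air 1 to 4, and S100a9, a neutrophil gene, at 0.974, 1.06, 7.96 and 2.35 CPM. Mean log2 CPM of the 4 neutrophil and monocyte markers tested was 2.02 in Room-air 3 and −0.716 to −0.294 in the other Room-air libraries.

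Some genes of the hypothalamus, of olfactory cells and of interneurons were high in only a few libraries. The hypothalamic hormone gene Avp was at 34.996, 0.761, 0.586 and 3.40 CPM in the Room-air libraries and 0.687, 2.07, 3.74 and 1.35 CPM in the air libraries, and Oxt at 21.4, 0.397, 0.0781 and 0.374 and 0.305, 0.830, 5.04 and 0.483 CPM. Room-air 1 was the high library for both, and also for Calb2, a calcium-binding protein of interneurons, at 50.7, 8.54, 5.35 and 10.2 CPM. Pmch, of the lateral hypothalamus, was at 12.99, 0.364, 0.351 and 2.69 CPM in the Room-air libraries and 0.458, 32.97, 4.12 and 0.386 CPM in the air libraries, highest in air 2. Omp, the olfactory marker protein, was at 15.8, 0.529, 0.820 and 2.95 and 12.2, 0.933, 0.917 and 1.06 CPM, highest in Room-air 1 and air 1. None of these genes was called between the sets. Over genes of at least 5 CPM in both sets, the median within-set SD of log2 CPM was 0.146 in the air set and 0.1603 in the Room-air set, against a median absolute difference of 0.199 between the set means.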

How the data were processed

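Polyadenylated RNA of cerebral microvessels was measured by sequencing in 19 libraries, and the 8 of unexposed mice (4 titled air, 4 titled Room-air) were compared. Per the submitters' processing notes, the authors used STAR, HTSeq and the mm10 build. Versions, the feature type and the strand setting are not given in the sources used here. The authors deposited raw read counts for 39179 genes per library plus 5 summary lines (no feature, ambiguous and the like), which were kept out of library sizes and tests. Symbols for 37693 genes came from GENCODE M21. Genes were filtered by edgeR's filterByExpr, scaled by TMM and tested with edgeR 4.0.16 (quasi-likelihood, robust) in R 4.3.3 on all 19 libraries, contrast air minus Room-air, with Benjamini-Hochberg adjustment over 16557 genes. Alternatives used DESeq2 1.42.0, limma 3.58.1 (voom), other scalings and filters, thinning to equal counts, GC and length offsets (mgcv 1.9.3), marker covariates, a replicate block and single libraries left out. Depth was 9761373 to 30185056 counts. The scripts were tested on simulated data.

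Members and lists were chosen with earlier results of these data known. Named genes were the 12 largest differences in each direction with no overlap and a mean of at least 5 CPM in the higher set, up to 5 called and the first 3 tested members of each list, all reference genes, the 8 most variable genes of each set and the 10 smallest adjusted p. The labels do not say that equal replicate numbers mark related samples, so the numbers were not treated as pairs. Some of the genes that the rule covers are not reported here.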

Additional observations from a re-analysis of the deposited data

Results flagged for a closer look

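Within sets of 4, single libraries stood apart from the other 3 in 19 of 316 sets of values checked, where chance gives about 1 in 20. The values checked were CPM of 106 named genes, most of them called, mean log2 CPM of the 48 lists, and depth and read shares. Lcn2, Lrg1, Avp, Oxt, Calb2, Pmch and Omp, described above as variable, were not among them. The 19 therefore do not stand for all genes. In air 1, Nfkbia was at 53.1 CPM (others 36.3 to 39.1) and Chrna7 at 2.37 (others 3.21 to 3.36). In air 2, Per1 was at 90.9 (others 64.0 to 66.4), Galnt15 at 16.4 (others 7.24 to 8.40) and Tspan12 at 36.5 (others 29.6 to 30.1). In air 3, the neuronal genes Nrgn and Npy were at 1379.7 (others 799 to 876) and 89.4 (others 60.7 to 65.3), and Ighm at 61.9 (others 49.3 to 50.8). In air 4, Per2 was at 80.2 (others 59.4 to 61.7) and Nos1 at 18.9 (others 24.6 to 25.5).

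In Room-air 4, Sgk1 was at 239 CPM (others 167 to 174) and Col4a1 at 238 (others 261 to 262). In Room-air 3, Xdh was at 90.8 (others 49.9 to 56.0), Galnt15 at 67.3 (others 25.7 to 28.99) and Opalin at 17.1 (others 21.1 to 21.9). The mean log2 CPM of neutrophil and monocyte markers was 2.02 in Room-air 3 (others −0.716 to −0.294), and that of leukocyte adhesion genes 4.79 (others 3.72 to 3.79). Calr was at 707 in Room-air 2 (others 864 to 879), and Rpl39 at 33.5 in Room-air 1 (others 36.5 to 37.03).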

How the results depend on the processing

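The air and Room-air sets differed in 3761 genes (1777 higher, 1984 lower in air), and none of these was called in the opposite direction in any of the 24 alternatives. The fit of the 8 libraries alone, DESeq2's size factors or test, upper quartile scaling, limma-voom, either filter, thinning and GC and length offsets gave 3086 to 4260 calls. Marker covariates moved the counts most, to 2286 (928 higher) with choroid genes, 735 (264 higher, 471 lower) with neuron genes, 833 (405 higher, 428 lower) with endothelial genes and 189 (56 higher, 133 lower) with all 3. With a ribosomal protein covariate 1174 genes were higher and 1369 lower, of which 574 and 963 were among those above. The ribosomal covariate and the 3 covariates together were chosen after seeing the data. Leaving out 1 library gave 2415 to 3496 calls (1096 to 1815 higher, 1292 to 1817 lower). A block for the replicate number gave 3566 calls. Over 14812 genes, same-numbered libraries correlated at 0.0251, −0.179, −0.104 and 0.0989 in their deviations from the set means. Differently numbered libraries ran from −0.305 to 0.216. So few values cannot show whether equal numbers mark related samples, and the labels do not say so.

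With the endothelial covariate Cldn5 and Tjp1 turned to 0.61 and 0.15, and with all 3 covariates to 0.54 and 0.14. With all 3, Kl turned to 0.050 and Mt2 to −0.053. With the ribosomal covariate Rplp0, Mt1 and Mt2 turned to −0.060, −0.12 and −0.28, and with the neuron covariate Mt2 to −0.12. Cldn5 is a member of the endothelial list, Kl of the choroid list and Rplp0 of the ribosomal list. Each of these genes was thus fitted against a mean that holds it, so its turn of sign says nothing about the gene by itself. For Tjp1, Mt1 and Mt2 the cause was not tested. Without 1 library the no-feature share differed by 3.99 to 5.61 percentage points, the ambiguous share by −0.0557 to −0.0375 and the share of the top 20 genes by 0.358 to 1.10. The exact permutation p of the no-feature share was 0.0571 in 6 of these 8 comparisons and 0.0286 in the others. Depth limits low genes most in the air set.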
